A study of Mus musculus with 6 samples.

Results

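The genes described here are 9 transcription factor genes of the dentate granule neuron lineage: Pax6, Emx2, Eomes (also called Tbr2), Neurod1, Neurod2, Neurod6, Prox1, Bcl11b (also called Ctip2) and Tbr1. They were chosen by symbol, and all 9 had values among the 20323 genes analysed. RNA was sequenced from GFP-positive cells of the mouse hippocampus, taken by magnetic sorting, with 1 brain per sample. All mice were Nestin-CreERT2;Rosa26-mGFP, so that GFP marks cells in which the Nestin promoter drove Cre, together with their progeny. All mice ate cuprizone, a copper chelator used to strip myelin, for 10 weeks and then recovered for 4 weeks. Saline with 0.1% bovine serum albumin was given to the 3 vehicle mice. Neuregulin 1 beta 1 (Nrg-1β1), a ligand of ErbB receptors, was given to the other 3. Its dose is 60 µg per kg per day in the series text but 60 g in the sample labels, and is therefore uncertain. The labels used here give neither the age of the mice nor the time of Cre induction. The design asks what Nrg-1β1 does to gene expression in such cells once demyelination has been prolonged.

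New granule neurons arise in the adult dentate gyrus from radial glia-like stem cells, and transcription factors mark the steps. Pax6, a paired-domain and homeodomain factor, and Emx2, a homeodomain factor, are expressed in stem cells and astrocytes of this lineage. Eomes, a T-box factor, marks intermediate progenitors, and Neurod1, a basic helix-loop-helix (bHLH) factor, acts in late progenitors and neuroblasts and is needed for granule neuron survival. Prox1, a homeobox factor, defines granule neuron identity, and Bcl11b, a zinc finger factor, is present in postmitotic granule and CA1 neurons. Neurod2 and Neurod6 are bHLH factors of mature glutamatergic neurons, and Tbr1 is a T-box factor of postmitotic glutamatergic neurons of the cortex and hippocampus. Several of these genes are also used outside the lineage. Bcl11b and Eomes are expressed in lymphocytes, and Prox1 in interneurons and oligodendrocyte lineage cells.

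The libraries differed strongly in depth, and partly with the group. From 567073 to 1327003 reads were recovered in the Nrg-1β1 libraries and 1075813 in vehicle library 2, against 72953034 and 47076006 in vehicle libraries 1 and 3. The deposited values are read as log2(normalized count + 4), on which no read gives 2.00 and a single read between 2.82 and 3.20 in the 4 shallow libraries, but 2.02 in the deep ones. Sex-linked transcripts differed between the groups and within the vehicle group. Reads of Xist numbered 3255, 216 and 1045 in vehicle 1 to 3, against 2, 3 and 1 in Nrg-1β1 1 to 3, while those of the Y-linked Ddx3y numbered 82, 1 and 1994, against 29, 22 and 15. On the log2 scale Xist was 6.07 to 9.39 in vehicle and 2.82 to 4.27 in Nrg-1β1 (adjusted p = 0.00356, limma). Ddx3y was 5.63 to 7.27 in Nrg-1β1 and 6.96 in vehicle library 3, against 3.16 and 2.83 in vehicle libraries 1 and 2. Vehicle library 3 thus had Ddx3y within the Nrg-1β1 range and Xist, at 6.07, above it, although each sample is given as 1 brain. The reason was not tested. What sets these transcripts apart between the groups cannot be told apart from the treatment. The labels call the cells neural progenitors. Nes, the nestin gene, was read 1518, 23 and 3869 times in vehicle against 6, 9 and 9 times in Nrg-1β1. On the log2 scale Nes was 6.23 to 7.89 in vehicle but 4.97 to 5.64 in Nrg-1β1 (adjusted p = 0.0582, limma). The proliferation gene Mki67 had at most 2 reads in any shallow library. Sox2, also checked, was detected well in every library, from log2 8.20 to 9.44, and differed by 0.47 (adjusted p = 0.547, limma). Dcx, the last marker checked, differed by 1.23 (adjusted p = 0.428, limma), with 1 to 12 reads per shallow library. Genes of differentiated cells were abundant. The summed normalized counts of 8 oligodendrocyte genes lay between 92157 and 189494 per library, and those of 8 pan-neuronal genes between 14203 and 27039. In such bulk samples fewer cells of a type and less RNA per cell cannot be told apart.

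Levels between genes were compared as normalized counts per kilobase of exon. The length is the union of all annotated exons of a gene, so the order depends on it. It was longest for Pax6, at 11694 bases. Without division by length, Bcl11b (118) and Pax6 (101) had the highest mean normalized counts over all libraries. In vehicle, Emx2 had the highest mean (25.8 ± 9.03, SD, n = 3), followed by Neurod2 (22.5 ± 10.8), Bcl11b (13.1 ± 2.48), Neurod6 (10.8 ± 4.34) and Tbr1 (10.5 ± 3.36). Pax6 (6.32 ± 1.92), Prox1 (3.98 ± 1.91), Neurod1 (2.40 ± 1.02) and Eomes (1.62 ± 1.19) came last. The ranges over the 3 libraries overlapped between all neighbours in this order, so it holds only in part. In Nrg-1β1, Emx2 (39.3 ± 18.4, SD, n = 3) and Neurod2 (29.0 ± 7.24) again led, followed by Neurod6 (22.1 ± 7.06), Bcl11b (12.7 to 21.4 over the 3 libraries), Pax6 (11.0 ± 0.07), Tbr1 (10.0 ± 6.25) and Prox1 (4.03 ± 1.03). Neurod1 (0.742 ± 1.29) and Eomes (0.414 ± 0.718) again came last. Here the ranges of Bcl11b and Pax6, and those of Prox1 and Neurod1, did not overlap, while those of the other neighbours did. Emx2 or Neurod2 ranked first in each of the 6 libraries, and the factors of intermediate progenitors and neuroblasts had the lowest means in both groups.

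**Figure D1:**
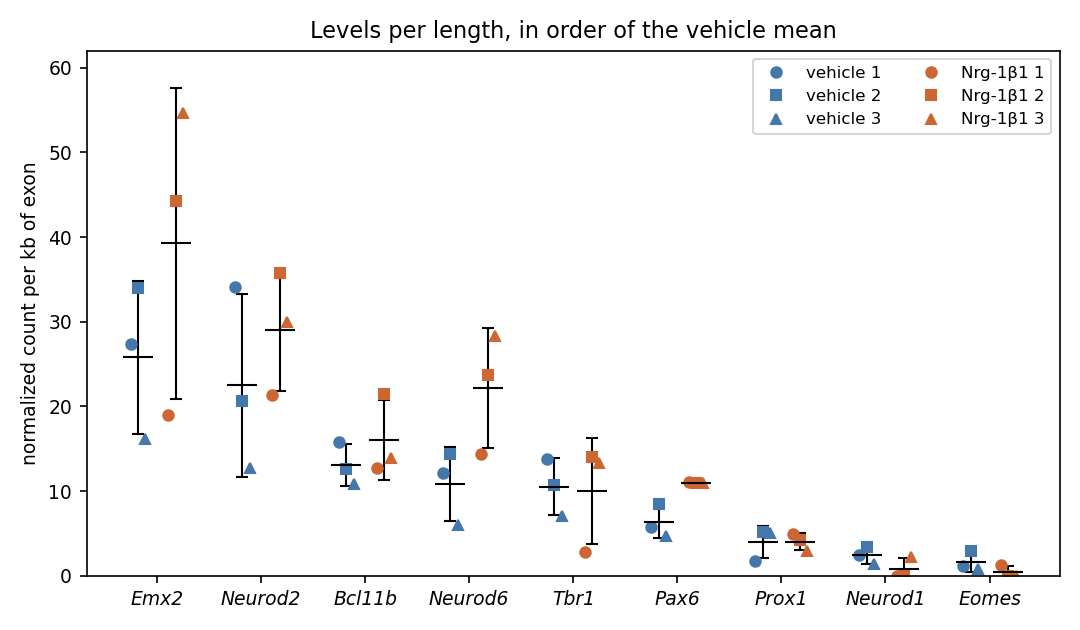
Normalized count per kilobase of exon (y axis) of each gene (x axis, in order of the vehicle mean) in the 3 vehicle (blue) and 3 Nrg-1β1 (orange) libraries. Marker shapes give the replicate number, which was not treated as a pairing, and black bars give the mean and SD. Emx2 and Neurod2 have the highest means in both groups, and Neurod1 and Eomes the lowest.

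Pax6 and Emx2 stand at the stem cell end of the lineage. Reads of Pax6 numbered 1120, 32 and 912 in vehicle libraries 1, 2 and 3, against 25, 25 and 42 in Nrg-1β1 libraries 1, 2 and 3, an order kept throughout. On the log2 scale these are 6.17, 6.68 and 5.89 in vehicle and 7.06, 7.04 and 7.04 in Nrg-1β1. Every Nrg-1β1 value lay above every vehicle value, and the shallow vehicle library 2 was nearest to them. The vehicle mean was 6.25 ± 0.40 and the Nrg-1β1 mean 7.05 ± 0.01 (SD, n = 3 each). Their log2 difference, 0.80 ± 0.32 (SE), did not pass the adjustment over all genes (adjusted p = 0.272, limma). Emx2 was counted 1359, 33 and 799 times in vehicle, against 11, 26 and 54 times in Nrg-1β1. Its log2 values were 6.43, 6.73 and 5.71 in vehicle and 5.93, 7.10 and 7.39 in Nrg-1β1. The groups overlapped, because Nrg-1β1 library 1 lay below vehicle libraries 1 and 2. The difference was 0.52 ± 0.40 (SE, adjusted p = 0.642, limma). Emx2os, transcribed from the opposite strand and sharing 264 exonic bases with Emx2 in the annotation, was counted 249, 4 and 192 times in vehicle, against 0, 5 and 7 times in Nrg-1β1. The strand setting of the counting is not given, so reads of the shared bases could belong to either gene.

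Eomes and Neurod1, the factors of intermediate progenitors and neuroblasts, were close to the detection limit. Eomes was counted 77, 4 and 52 times in vehicle, against 1, 0 and 0 times in Nrg-1β1. The log2 values were 3.11, 4.03 and 2.84 in vehicle and 3.20, 2.00 and 2.00 in Nrg-1β1. A single read put Nrg-1β1 library 1 above vehicle libraries 1 and 3, so the groups overlapped. The difference was -0.93 ± 0.52 (SE, adjusted p = 0.472, limma). Neurod1 was counted 111, 3 and 61 times in vehicle, against 0, 0 and 2 times in Nrg-1β1. Its log2 values were 3.42, 3.73 and 2.94 in vehicle and 2.00, 2.00 and 3.33 in Nrg-1β1. Here 2 reads put Nrg-1β1 library 3 within the vehicle range. The difference was -0.92 ± 0.51 (SE, adjusted p = 0.472, limma). Cerkl shares 201 exonic bases with Neurod1 on the same strand and was counted 11, 0 and 91 times in vehicle, against 0, 2 and 0 times in Nrg-1β1. An unknown share of the reads could therefore belong to either gene. On the opposite strand, Gm26755 shares 154 exonic bases with Neurod1 and Gm33460 shares 118 with Eomes. Neither was found among the analysed genes. At the pooled vehicle level, 2.86 Eomes reads and 3.77 Neurod1 reads would have been counted over the 3 Nrg-1β1 libraries together, against the 1 and 2 that were. At the level of vehicle library 2, the one of similar depth, they would have been 8.87 and 6.65, from its 4 and 3 reads. With so few reads the 95% counting intervals of the ratio to vehicle, given with the pooled levels, include 1 for both genes on either basis.

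**Figure D2:**
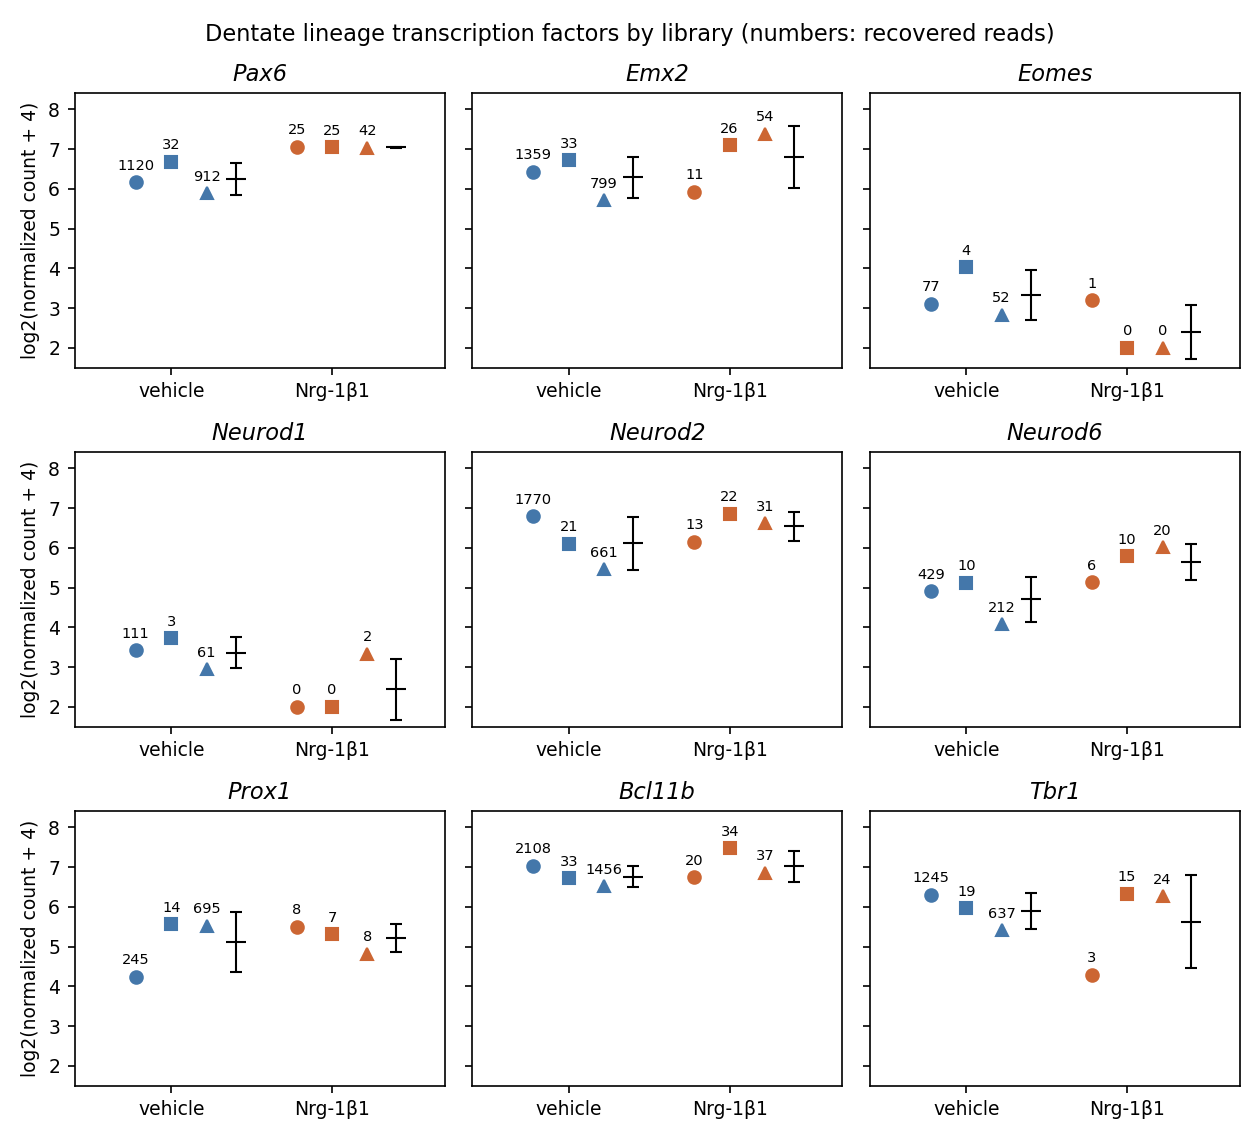
Log2(normalized count + 4) (y axis) of each of the 9 genes in the 3 vehicle (blue) and 3 Nrg-1β1 (orange) libraries, with the recovered reads above each point and the mean and SD as black bars at the right. Circles, squares and triangles are libraries 1, 2 and 3. Pax6 and Neurod6 are the genes whose Nrg-1β1 points all lie above the vehicle points, for Neurod6 by 0.01, and Eomes and Neurod1 rest on 0 to 2 reads in each Nrg-1β1 library.

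Neurod2 and Neurod6, the bHLH factors of mature neurons, had positive differences. Neurod2 was counted 1770, 21 and 661 times in vehicle, against 13, 22 and 31 times in Nrg-1β1. On the log2 scale these are 6.80, 6.10 and 5.46 in vehicle and 6.15, 6.86 and 6.62 in Nrg-1β1. Vehicle library 1 lay among the Nrg-1β1 values, and the difference was 0.42 ± 0.38 (SE, adjusted p = 0.708, limma). Neurod6 was counted 429, 10 and 212 times in vehicle, against 6, 10 and 20 times in Nrg-1β1. The log2 values were 4.91, 5.12 and 4.07 in vehicle and 5.13, 5.78 and 6.02 in Nrg-1β1. The groups did not overlap, but Nrg-1β1 library 1 with 6 reads and vehicle library 2 with 10 were only 0.01 apart. The vehicle mean was 4.70 ± 0.56 and the Nrg-1β1 mean 5.64 ± 0.46 (SD, n = 3 each). The difference was 0.94 ± 0.45 (SE, adjusted p = 0.383, limma), the largest positive one of the 9 genes.

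bHLH factors such as the Neurod proteins bind E-boxes, among them CAGATG, and homeodomain factors such as Emx2 bind sites with TAATTA. Both motifs and the E-box CAGCTG were searched on both strands in the 250 bases before each RefSeq start (GRCm38.p6), which gave 11 windows for the 9 genes. CAGATG was in 2 of 11 windows, those of Neurod2 and of a Prox1 start, and in 14.4% of the 32851 windows of all genes. CAGCTG was in 0 of 11 (13.0% of all windows), and TAATTA was in 1 of 11, that of Tbr1 (4.84%). The windows of Neurod2, of this Prox1 start and of Tbr1 are shown because they hold a motif, and that of Neurod6 because it is the closest relative of Neurod2 here and holds none. Each is written 5′ to 3′ on the gene's strand, and capitals mark the motif. They lie at chr11:98329646-98329895 (minus strand, Neurod2), chr6:55681264-55681513 (minus, Neurod6), chr1:190170828-190171077 (minus, Prox1) and chr2:61804203-61804452 (plus, Tbr1).
Neurod2: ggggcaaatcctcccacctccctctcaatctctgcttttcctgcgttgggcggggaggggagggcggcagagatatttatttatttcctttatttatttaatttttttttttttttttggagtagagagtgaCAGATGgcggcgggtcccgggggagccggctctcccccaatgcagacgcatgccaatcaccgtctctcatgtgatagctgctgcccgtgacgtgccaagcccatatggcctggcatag
Neurod6: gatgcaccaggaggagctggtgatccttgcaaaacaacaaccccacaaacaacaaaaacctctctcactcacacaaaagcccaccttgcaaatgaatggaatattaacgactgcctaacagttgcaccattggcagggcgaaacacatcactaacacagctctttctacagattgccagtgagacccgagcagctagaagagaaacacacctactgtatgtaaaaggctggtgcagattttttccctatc
Prox1: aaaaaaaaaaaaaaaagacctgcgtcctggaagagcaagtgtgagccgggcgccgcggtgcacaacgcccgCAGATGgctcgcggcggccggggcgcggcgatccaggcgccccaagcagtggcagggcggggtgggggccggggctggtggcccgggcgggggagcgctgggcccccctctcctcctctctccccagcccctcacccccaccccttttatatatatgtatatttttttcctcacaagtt
Tbr1: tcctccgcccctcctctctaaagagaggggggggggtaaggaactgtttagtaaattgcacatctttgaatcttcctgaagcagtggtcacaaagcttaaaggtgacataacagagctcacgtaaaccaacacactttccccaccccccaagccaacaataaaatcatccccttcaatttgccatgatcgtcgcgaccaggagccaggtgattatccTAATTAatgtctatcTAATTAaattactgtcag
The CAGATG letters begin 118 bases before the start of Neurod2 and 179 before that of Prox1, and the TAATTA letters begin 33 and 18 bases before that of Tbr1. A match describes the sequence only, and no binding was measured.

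The groups overlapped for Prox1, the factor of granule neuron identity, and for Bcl11b and Tbr1, factors of postmitotic neurons. Prox1 was counted 245, 14 and 695 times in vehicle, against 8, 7 and 8 times in Nrg-1β1. Its log2 values were 4.24, 5.56 and 5.52 in vehicle and 5.50, 5.31 and 4.82 in Nrg-1β1. All Nrg-1β1 values fell inside the vehicle range, and vehicle library 1 was the low one. The difference was 0.11 ± 0.46 (SE, adjusted p = 0.93, limma), and it was -0.33 without vehicle library 1. Prox1os, on the opposite strand, shares 133 exonic bases with Prox1 and was not found among the analysed genes. Bcl11b had the most vehicle reads of the 9 genes, 2108, 33 and 1456, and 20, 34 and 37 in Nrg-1β1. Its log2 values were 7.04, 6.73 and 6.52 in vehicle and 6.75, 7.47 and 6.86 in Nrg-1β1. The difference was 0.26 ± 0.32 (SE, adjusted p = 0.736, limma), with a 95% interval from -0.40 to 0.93. Tbr1 was counted 1245, 19 and 637 times in vehicle, against 3, 15 and 24 times in Nrg-1β1. Its log2 values were 6.31, 5.97 and 5.41 in vehicle and 4.29, 6.33 and 6.27 in Nrg-1β1. Nrg-1β1 library 1 lay below all others, while the other Nrg-1β1 libraries were at the top of the vehicle range. The difference was -0.27 ± 0.49 (SE, adjusted p = 0.816, limma), and it turned to 0.40 without Nrg-1β1 library 1.

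Of the 9 genes, 0 passed the adjusted threshold in limma, against 1.06% of all 20323 genes (0.438% higher and 0.625% lower), and 0 passed with limma-voom on the recovered reads, which called 0.0689% of all genes with library totals and 0.108% with the authors' scaling. At an unadjusted limma p of 0.05, Pax6 and Neurod6 passed, as did 13.0% of all genes. The same 2 genes had groups that did not overlap, both higher in Nrg-1β1, as in 7.37% of all genes. No member had all Nrg-1β1 values below vehicle, as 10.4% of all genes had. A two-sided exact permutation test of the means gave p = 0.1 for both, the smallest that 3 against 3 samples allow, and p from 0.2 to 1 for the other genes. The difference was positive in 6 of 9 genes, against 52.2% of all genes, with a median of 0.26 against 0.03. The 95% interval of the difference excluded a change of 2-fold in either direction on this scale for Bcl11b alone. For the other 8 genes it reached a log2 of 1 or -1, so a missed threshold does not show that they were alike in the groups.

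**Figure D3:**
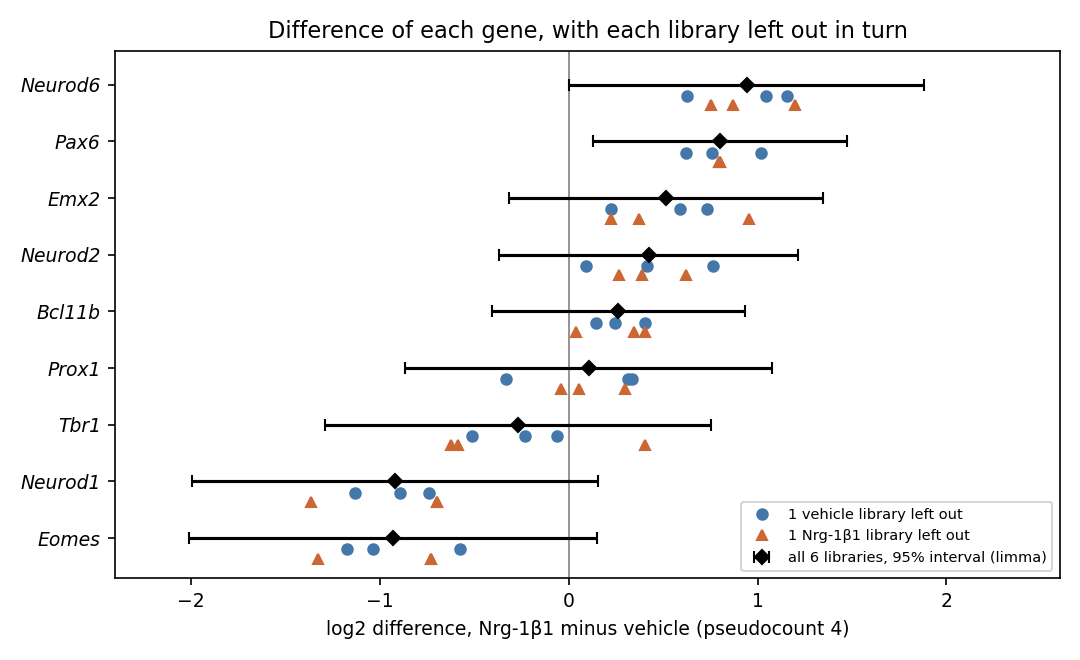
Log2 difference, Nrg-1β1 minus vehicle, of each gene (diamonds, with the 95% limma interval as bars), and the same difference with 1 vehicle library (circles) or 1 Nrg-1β1 library (triangles) left out. Pax6 stays between 0.62 and 1.02 and Neurod6 between 0.63 and 1.20, while Prox1 and Tbr1 lie on both sides of 0.

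The recovered reads allow a ratio of pooled levels with a 95% Clopper-Pearson interval, which covers counting error only and leaves out the spread between animals. Against all vehicle libraries the ratio was 2.07 (1.66 to 2.55) for Pax6, 1.93 (1.55 to 2.38) for Emx2 and 2.57 (1.78 to 3.59) for Neurod6. Vehicle libraries 1 and 3 make up almost all of the vehicle reads in these ratios. Against vehicle library 2 alone, the vehicle library of similar depth, the ratio was 1.30 (0.858 to 2.00) for Pax6, 1.24 (0.827 to 1.91) for Emx2 and 1.62 (0.789 to 3.67) for Neurod6. All 3 intervals then included 1. The fitted difference fell with it, to 0.36 for Pax6, 0.52 for Neurod6 and 0.08 for Emx2 when vehicle libraries 1 and 3 were left out. Without vehicle libraries 1 and 2, where Ddx3y reads were few beside those of Xist, it was 1.16 for Pax6, 1.57 for Neurod6 and 1.10 for Emx2 against the remaining vehicle library 3. Each of these leaves 1 vehicle library, which is assumed to vary like the others. In all 3 genes the shallow vehicle library 2 had the highest vehicle value and vehicle library 3 the lowest. A read depth class term gave the same differences as leaving out vehicle libraries 1 and 3, since the deep libraries were all vehicle. The part of depth in the result was not tested separately. For the remaining genes the ratio against all vehicle libraries was 1.25 (0.964 to 1.60) for Neurod2, 1.18 (0.944 to 1.45) for Bcl11b, 1.12 (0.707 to 1.69) for Prox1 and 1.03 (0.737 to 1.39) for Tbr1. For Neurod1 it was 0.531 (0.0638 to 1.95) and for Eomes 0.349 (0.00878 to 1.98). These intervals span 1, and those of Eomes and Neurod1 reach from far below 1 to almost 2. Against vehicle library 2 alone they were 0.113 (0.00229 to 1.14) for Eomes and 0.301 (0.0251 to 2.62) for Neurod1. Single deep libraries moved several ratios and took some of the intervals off 1. Without vehicle library 1 the ratio was 2.27 (1.74 to 2.93) for Neurod2, 1.43 (1.15 to 1.77) for Bcl11b, 1.503 (1.07 to 2.05) for Tbr1 and 0.761 (0.479 to 1.15) for Prox1. Without vehicle library 3 it was 2.08 (1.30 to 3.19) for Prox1 and 0.864 (0.665 to 1.10) for Neurod2. Without the library that held their reads, Nrg-1β1 library 1 for Eomes and 3 for Neurod1, no read of these genes was left in the group.

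**Figure D4:**
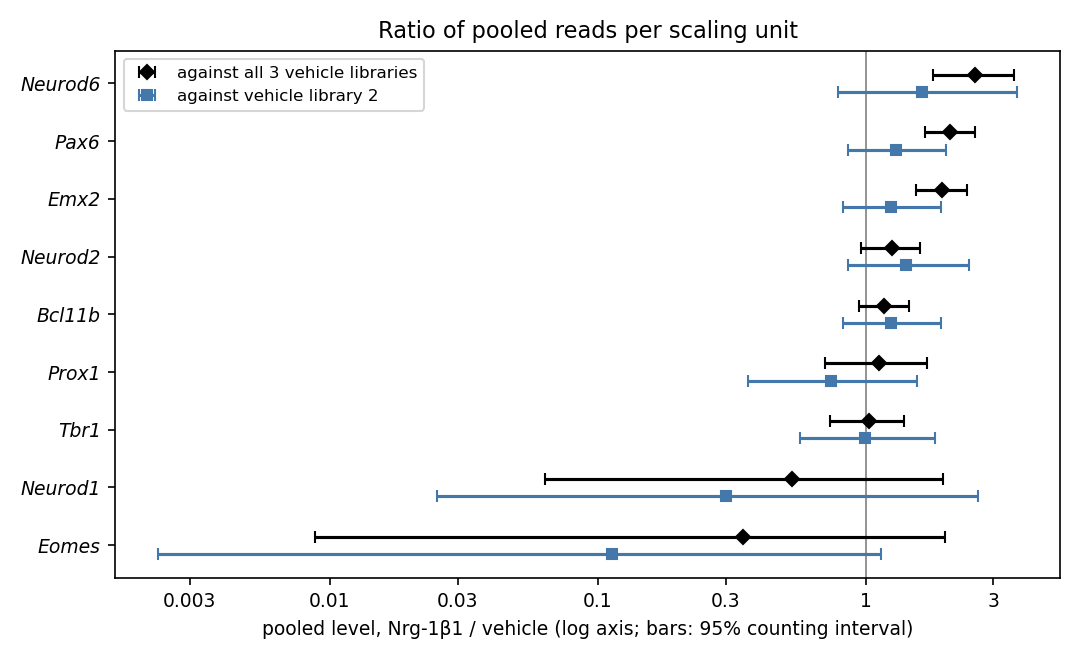
Ratio of the pooled level in Nrg-1β1 to that in vehicle (x axis, log scale) for each gene, against all 3 vehicle libraries (diamonds) and against vehicle library 2 alone (squares), with 95% counting intervals. The intervals of Neurod6, Pax6 and Emx2 lie above 1 against all vehicle libraries and include 1 against vehicle library 2.

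For the 6 genes with at least 5 reads in every library, the 3 genes with the most similar profile were sought among the genes with a mean log2 value at or above the median. Likeness is the root mean square difference of the centred log2 values over the 6 libraries. Closest to Pax6 were Ppt1 (0.05), Asrgl1 (0.07) and Rgs7bp (0.08), while Pax6 itself varied by 0.46 around its mean. Among the closest to Emx2 were Sord (0.11) and Meg3 (0.12). Neurod2 was matched by Rnf165, S100a16 and Celf4 (each 0.14), and Neurod6 by Mgll (0.10), Tlcd3b (0.13) and Ube2r2 (0.14). For Prox1 the closest were 8030462N17Rik (0.09), Synrg (0.13) and Megf9 (0.15), and for Bcl11b they were Abhd17c (0.07), Ola1 (0.08) and Cop1 (0.08). None of these 6 genes had another of them or Tbr1 among its closest. Eomes and Neurod1 lay below the median level, so they were not among the candidates. No match was sought for Eomes, Neurod1 or Tbr1, which had fewer than 5 reads in some library. The libraries share depth and composition, so these profiles are descriptions over 6 points.

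Other transcription factors of the neurogenic programme gave a mixed picture. Of 27 measured genes 2 rose and 0 fell, and 18 had a positive difference, with a median of 0.21. The stem cell factor gene Sox1 rose by 1.96 ± 0.39 (SE, adjusted p = 0.0194, limma), and Nr2e1, which encodes the orphan receptor Tlx that maintains neural stem cells, rose by 1.56 ± 0.36 (SE, adjusted p = 0.0438, limma). Of 12 neuroblast and immature neuron genes 0 passed (median 0.29), and Calb2, the calretinin gene of immature granule neurons and interneurons, differed by 1.17 and the adhesion gene Ncam1 by 0.77. Of 10 genes of mature granule neurons 1 fell (median -0.17). This was Dock10, a guanine nucleotide exchange factor gene (-1.61 ± 0.35, SE, adjusted p = 0.0302, limma), which immune cells also express. Of 10 pyramidal neuron genes 0 passed (median 0.27), with Man1a at -1.29 and Wfs1, a CA1 marker, at 0.74. Of 8 pan-neuronal genes 0 passed and all 8 were positive (median 0.14), with the vesicular glutamate transporter gene Slc17a7 at 1.16 and Nrgn at 1.11. Of 9 interneuron genes 0 passed (median 0.38, Gad1 at 0.86 and Npy at 1.22), and the same held for 6 Cajal-Retzius cell genes (median 0.16, Cacna2d2 at 1.30 and Ndnf at -1.23). Every one of these calls, and of those in the lists that follow, is lost when any Nrg-1β1 library, vehicle library 2 or the deep vehicle libraries are left out. They also depend on the method with all libraries kept. Sox1, Nr2e1 and Dock10 were not called with quantile normalization, limma-voom, limma without its intensity trend or either filter on low values. With limma-voom no endothelial or microglia gene of the lists was called.

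Glial and vascular markers moved alongside. The summed normalized counts of 8 astrocyte genes were 22177 to 31673 in vehicle and 38344 to 39518 in Nrg-1β1, separated by group as Pax6 was. All 8 had a positive difference and 0 passed (median 0.65, Sox9 at 1.06 and Aldh1l1 at 0.87). Such separation was not particular to astrocyte genes. The sum of the other neurogenic transcription factors was also higher, at 3822 to 5137 in vehicle and 5478 to 6916 in Nrg-1β1. That of the mature granule neuron genes was lower, at 300 to 402 in vehicle and 176 to 279 in Nrg-1β1. Endothelial, microglia and choroid plexus sums were separated too, all lower in Nrg-1β1. Of 10 stem and progenitor genes 0 passed (median 0.20), and their sum was 6250 to 8798 in vehicle and 11127 to 12642 in Nrg-1β1, while Nes and Vim differed by -1.65 and -1.41. This sum rested mostly on Slc1a3 and Gfap, with mean normalized counts of 5511 and 2503 over all libraries. The mean centred log2 value of the 10 genes did not separate the groups. It was 0.27, -0.22 and 0.19 in vehicle and -0.31, -0.09 and 0.18 in Nrg-1β1. The part of astrocyte content in the Pax6 result was not tested. Of 8 cell cycle genes 0 passed (median -0.08, or 0.02 with Ccna2 at its bound of 3 reads over the group, Pcna at -0.43, and Ccna2 with no read in Nrg-1β1). In the oligodendrocyte list 0 of 8 passed (median -0.35, Mag at -0.89), and in the oligodendrocyte progenitor list 1 of 7 rose, C1ql1 (1.99, adjusted p = 0.0382, limma). Endothelial genes fell in 7 of 8 (median -3.28), with Ly6a at -3.66, Slco1a4 at -3.62, Ly6c1 at -3.59 and Cldn5 at -3.47. Microglia genes fell in 5 of 8 (median -1.53), with P2ry12 at -2.03, Siglech at -1.66, Fcrls at -1.61 and Csf1r at -1.43. Choroid plexus genes fell in 4 of 7 (median -2.68, and -2.61 with Kcne2 at its bound), namely Ttr (-4.85), Kl (-3.44), Kcne2 and Kcnj13, with 0 and 1 reads in Nrg-1β1. Of 5 ependymal genes 0 passed (median -1.80, Foxj1 at -1.29 and Tmem212 at -1.88). T and NK cell genes, relevant because lymphocytes express Bcl11b and Eomes, were near the limit. Their 6 measured members summed to 6.36 to 21.6 normalized counts in vehicle and 6.08 to 20.4 in Nrg-1β1 and 0 passed (median -0.06, Cd3d at 0.27 and Trbc2 at -0.23).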

How the data were processed

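The authors deposited 1 table of log2 values for 6 libraries. Trimmomatic and Bowtie2 are named in the submitters' processing notes. Their versions, the genome build, read counter, strand setting, scaling and filter were not given in the sources used here. Of 27102 genes 6779 are blank in all libraries, and 20323 were analysed. After 4 was taken from the unlogged values, all lay within 0.01 of a whole multiple of 1 step per library, so they are read as log2(normalized count + 4) and whole reads were recovered. This reading comes from the values. Depth was 567073 to 72953034 reads per library. Symbols missing for 1917 genes were taken from RefSeq GRCm38.p6 by gene number for 980.

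Groups were compared with limma 3.58.1 (R 4.3.3, intensity trend, group as the only term, all genes, Benjamini-Hochberg adjustment, threshold 0.05). Each animal is 1 sample. Exon lengths and overlapping genes come from GENCODE M21 and promoters from RefSeq, so their match to the authors' annotation is unknown. All intervals are 95%. Those of the pooled ratios cover counting error only, while the limma intervals rest on the spread between samples. The genes and lists were chosen with earlier results of these data known. Named were the 9 genes, the genes with the closest profiles, up to 4 called genes of each list or the 2 with the smallest p where none was called, and marker genes. Of the genes this rule names, 2 are not reported here. Emx2os, Cerkl, Slc1a3 and Gfap were added after their values were seen. Alternatives were other scalings, tests, pseudocounts and filters, a replicate block, a depth term and left-out libraries.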

Additional observations from a re-analysis of the deposited data

How the results depend on the processing

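None of the 9 genes passed under any of the 20 alternatives run (Eomes and Neurod1 lack values under both filters on low values, and Neurod6 and Prox1 under the stricter one). The lowest adjusted p was 0.0868 for Pax6, 0.127 for Neurod6 and 0.141 for Neurod1. Pax6 ranged from 0.36 to 1.16, Neurod6 from 0.52 to 1.57, Emx2 from 0.08 to 1.10, Neurod2 from 0.09 to 1.09, Bcl11b from 0.04 to 0.50, Eomes from -1.89 to -0.35 and Neurod1 from -1.91 to -0.29. Directions turned for Prox1 and Tbr1. Prox1 was -0.35 with read depth class as a term and without vehicle libraries 1 and 3, and -0.31 without vehicle libraries 1 and 2, and it ranged from -0.33 to 0.33 with 1 library left out. Tbr1 was 0.22 without vehicle libraries 1 and 2 and ranged from -0.62 to 0.40 with 1 library left out. The cause was not tested.

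Over all genes 89 were higher and 127 lower, and 20 of them were in the lists. Higher, lower and list counts were 12, 53 and 12 with quantile normalization, 335, 164 and 24 with centring on medians, 13, 1 and 1 with limma-voom and library totals, and 19, 3 and 1 with limma-voom and the authors' scaling. They were 2, 19 and 5 without the trend, 151, 183 and 20 with array weights, 49, 80 and 16 with a pseudocount of 1, and 62, 106 and 18 with 16. They were 18, 59 and 11 when only genes averaging 10 or more normalized counts were kept, and 11, 38 and 9 at 50 or more. All 3 were 0 with the depth term and without vehicle libraries 1 and 3 or 1 and 2. With 1 library left out they ranged from 0 to 15, 0 to 41 and 0 to 8. Centring and limma-voom moved the median of all genes to between 0.25 and 0.27, where Pax6 stood at 1.02 and 1.00.

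With the replicate block the counts were 285, 342 and 32, and none of the 9 genes passed (Pax6 0.80, adjusted p = 0.359). Same-numbered libraries had correlations of -0.13, -0.002 and -0.18 in their deviations from the group means. No pairing was seen in these values, which does not show that none exists. Groups did not overlap for 2 of 9 genes under quantile normalization, centring and, chosen after seeing the data, scaling by library totals. All were higher, as 7.57%, 17.6% and 5.77% of all genes were. With 1 library left out it was 2 to 5 of 9, where 9.07% to 15.7% of all genes were higher and 12.3% to 16.8% lower. Depth limits Eomes and Neurod1 most.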
